A study of Homo sapiens with 118 samples.

Results

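The genes described here are those of the urea cycle and of ammonia handling: CPS1, OTC, ASS1, ASL, ARG1, ARG2, NAGS, SLC25A15, SLC25A13 and GLUL. They were taken from the count table by name. A row belonged to a gene when its name, without the trailing probe number, equalled the gene symbol. This gave 11 rows for 10 genes, of 22068 rows for 19470 gene names with a value in every library. Each row, called a feature below, is 1 detector probe of the TempO-Seq whole transcriptome panel, an assay in which probe pairs are ligated on the RNA of a cell lysate and sequenced. GLUL had 2 features and every other gene had 1. The rule that picks the rows uses no measured value, but the genes themselves were chosen with earlier results of these data known.

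The urea cycle turns ammonia, which is toxic to the brain, into urea. It starts in the mitochondria of liver cells, where NAGS makes the activator that CPS1 needs to join ammonia with bicarbonate, and where OTC adds the product to ornithine. The cycle is completed in the cytosol by ASS1, ASL and ARG1, and 2 mitochondrial carriers, SLC25A15 for ornithine and citrulline and SLC25A13 for aspartate, link the mitochondrial to the cytosolic steps. ARG2 is a second arginase that lies in mitochondria and is found mainly outside the liver. GLUL, glutamine synthetase, binds the ammonia that has escaped the cycle, and in liver it is confined to the cells around the central vein. Valproic acid, an antiepileptic drug that inhibits histone deacetylases, is a known cause of raised blood ammonia in patients.

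HepaRG is an established human liver line whose differentiated cultures hold hepatocyte-like and biliary-like cells, and the labels give its cell type as liver progenitor cells. Cells of 3 culture batches, used as replicates 1 to 3, were exposed for 72 h, with daily renewal, to 1 of 8 chemicals that inhibit histone deacetylases, each in 5 steps of rising dose (C1 to C5). The 40 groups held 118 libraries, with 3 in each of 38 groups and 2 in panobinostat C3 and trichostatin A C4. Solvent-treated cells were not analysed here, so C1 of the same inhibitor was the reference and every group compared, C1 included, carried an inhibitor. The doses of apicidin were 0.041722 µM at C1, 0.125167 µM at C2, 0.3755 µM at C3, 0.5 µM at C4 and 0.86 µM at C5. Mocetinostat was given at 0.177222 µM (C1), 0.531667 µM (C2), 1.595 µM (C3), 2.5 µM (C4) and 3.9 µM (C5). The steps of panobinostat were 0.001468 µM at C1, 0.004403 µM at C2, 0.01321 µM at C3, 0.03963 µM at C4 and 0.084 µM at C5. Scriptaid was given at 4.94 µM (C1), 14.82 µM (C2), 44.46 µM (C3), 60 µM (C4) and 94.5 µM (C5). For tacedinaline the doses were 1.143333 µM at C1, 3.43 µM at C2, 10.29 µM at C3, 30.87 µM at C4 and 44 µM at C5. Trichostatin A was given at 0.018811 µM (C1), 0.056433 µM (C2), 0.1693 µM (C3), 0.5079 µM (C4) and 1.5237 µM (C5). Vorinostat stood at 0.404778 µM at C1, 1.214333 µM at C2, 3.643 µM at C3, 10.929 µM at C4 and 23.5 µM at C5. The dose labels of valproic acid read 100.478 at C1, 301.433 at C2, 904.3 at C3, 2712.9 at C4 and 3038 at C5, and the sources used here disagree on their unit. The doses were not matched between inhibitors, so C5 of 1 inhibitor is not the same exposure as C5 of another.

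The libraries held between 1061359 and 5250260 counts, with a median of 3702007. Depth fell from C1 to C5 in all 8 inhibitors, most in vorinostat, from a mean of 3038905 to 1485592 counts. Levels are given below as CPM, the counts of a feature relative to the total of its library, after scaling for library composition. A member was called changed when its adjusted p in edgeR's quasi-likelihood test was under 0.05 and its change at least 1.5-fold. The hepatocyte-like identity was present at C1: none of 11 features of 10 hepatocyte markers was at the floor of 3 counts in a C1 group, and their summed level in the C1 libraries ran from 35740.5 to 65399.9 CPM outside trichostatin A. Of the biliary markers, EPCAM and CFTR were at 0 in the C1 and C5 libraries of valproic acid. Other markers of that list were measured there, with C1 means of 32.2 CPM for KRT19_10816, 22.5 CPM for SOX9 and 8.09 CPM for SPP1.

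One C1 library stood apart and touched the results for trichostatin A. The C1 library of batch 3 had a summed hepatocyte marker level of 12870.3 CPM, against up to 54824 CPM in its group. In the order of batches 1 to 3, the trichostatin A libraries at C1 held 131, 101 and 26.6 CPM of CPS1, 121, 106 and 22.7 CPM of ARG1 and 7.34, 4.93 and 25.7 CPM of ARG2. The third library was thus the lowest for CPS1 and ARG1 and the highest for ARG2. At C5 the batch 3 library was in turn the highest of its group for CPS1, with 34.2, 31.5 and 93.8 CPM in the same order. Without the C1 library of batch 3, 104 of 12878 features (0.808%) were called at C5 in trichostatin A, and still none of the 9 tested members.

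The 250 bases before the RefSeq start of ARG1 and ARG2 are shown because these arginases had opposite calls at C5 in 7 of the 8 inhibitors. They are read from the plus strand of build GRCh38.p14, 5′ to 3′, with letters in capitals where they match 1 of 3 searched motifs on either strand. These were the TATA box (TATAAA), the box of the factor NF-Y (CCAAT) and the box of the factor Sp1 (GGGCGG). The 2 windows are chr6:131572976-131573225 for ARG1 and chr14:67619670-67619919 for ARG2.
ARG1: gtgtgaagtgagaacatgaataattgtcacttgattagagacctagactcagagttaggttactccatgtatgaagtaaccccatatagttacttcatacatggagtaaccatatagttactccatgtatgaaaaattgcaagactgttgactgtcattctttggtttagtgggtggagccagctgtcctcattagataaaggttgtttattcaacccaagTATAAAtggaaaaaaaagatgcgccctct
ARG2: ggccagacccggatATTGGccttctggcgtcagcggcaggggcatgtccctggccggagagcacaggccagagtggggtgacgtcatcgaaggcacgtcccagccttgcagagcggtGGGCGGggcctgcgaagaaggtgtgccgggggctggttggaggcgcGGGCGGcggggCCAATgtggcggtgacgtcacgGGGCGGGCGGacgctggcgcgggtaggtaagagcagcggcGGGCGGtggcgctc

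The ARG1 window had 37.6% G and C, 1 CpG and 1 TATAAA match, whose first base lay 29 bases before the start. The ARG2 window had 72.4% G and C, 27 CpG, 5 GGGCGG matches, 2 of which overlap, and 2 CCAAT matches. Over 35116 promoter windows of the same length the medians were 58% G and C and 11 CpG, and 10.72% held TATAAA, 32.01% CCAAT and 42.64% GGGCGG. All 10 members had at least 1 window in the table, and 14 windows in all. ARG2 was the only member called higher at C5. Several members called lower there in at least 1 inhibitor had windows with a share of G and C near or above its own. Each of these windows held at least 1 GGGCGG match. Their shares of G and C were 79.6% for SLC25A15, 73.6% for SLC25A13, 74.8% and 71.2% for GLUL, 68.4% and 78.8% for ASS1 and 74% for ASL. Low values were found for OTC, at 40.4%, and for the 3 windows of CPS1, at 33.6%, 40% and 48.4%. These matches describe the letters of the windows and were not tested against the expression values.

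**Figure D1:**
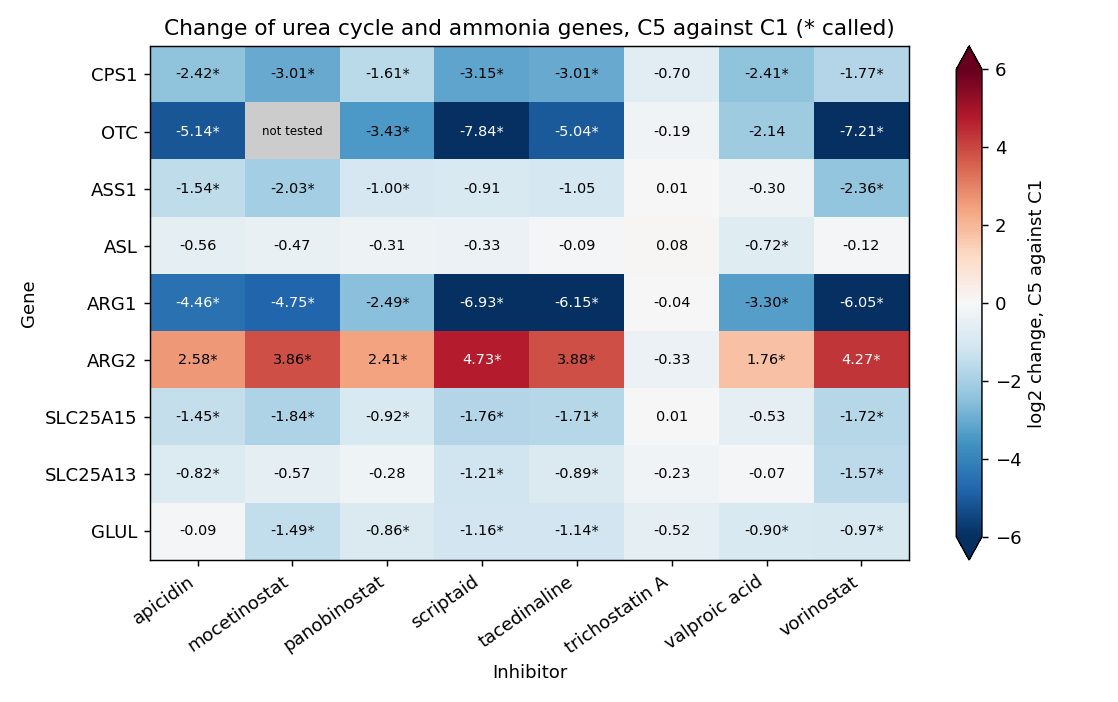
Log2 change from C1 to C5 of each tested gene (rows) in each inhibitor (columns), with a star where the change was called and colour from blue (lower at C5) to red (higher). ARG2 was the single gene that was higher in 7 inhibitors, and trichostatin A had no star. The fitted values of OTC in apicidin, scriptaid, tacedinaline and vorinostat and of ARG1 in scriptaid rest on C5 groups with at most 3 counts per library and are not sizes.

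At C5, CPS1 and ARG1 fell and ARG2 rose against C1 in 7 of the 8 inhibitors. SLC25A15 and GLUL were called lower in 6 inhibitors, OTC in 5, ASS1 and SLC25A13 in 4, and ASL in valproic acid alone. Summed over the inhibitors, 47 of 71 tests of a member were called, 40 lower and 7 higher, and each of the 7 higher calls was ARG2. Trichostatin A had no call. Leaving out 1 batch lowered the calls to 3 in panobinostat (without batch 3), 4 in scriptaid (without batch 2) and 3 in valproic acid (without batch 1).

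In apicidin 6 of 9 tested members fell and 1 rose, while 15% of all features tested fell and 13.8% rose. Mocetinostat had 5 members that fell and 1 that rose, of 8 tested, where 15.7% of features fell and 14.8% rose. For panobinostat 6 of 9 fell and 1 rose, against 9.46% and 6.77% of all features. The same counts, 6 of 9 and 1, were seen in scriptaid, where 17% of features fell and 12.8% rose, and in tacedinaline, where the shares were 20.1% and 18.7%. Vorinostat had 7 of 9 lower and 1 higher against 24.9% and 22.7%. In valproic acid 4 of 9 fell and 1 rose, and 6.22% of all features fell and 4.84% rose. Trichostatin A had 0 of 9, at 0.0154% of features lower and 0% higher, and 1 member had an unadjusted p under 0.05. In the other 7 inhibitors the share of members that fell was thus above that of all features. The median log2 change of the tested members ran from -1.72 in vorinostat to -0.72 in valproic acid, with -0.19 in trichostatin A, while the median over all features was highest in mocetinostat, at 0.08. These member medians were the same with the features at the count floor put at their bound.

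The hepatocyte markers moved with these changes. Of 11 marker features, 10 fell in apicidin and valproic acid, 9 in panobinostat, and 11 in mocetinostat, scriptaid, tacedinaline and vorinostat, with 0 in trichostatin A. Their summed level at C5 ranged from 2964 to 4237 CPM in tacedinaline, the lowest, and from 21538 to 28402 CPM in panobinostat, the highest of the 7. Of 4 or 5 tested biliary and progenitor features, between 1 and 3 rose in each of the 7 inhibitors and none fell. The 11 features of this list summed to between 63.7 and 161 CPM at C1 and between 64.1 and 225 CPM at C5. Of 14 mesenchymal marker features, 8 to 10 were tested in an inhibitor, and 27 calls were lower and 8 higher in 72 tests. Lower calls numbered 4 in each of the 7 inhibitors except scriptaid, with 2, and 1 in trichostatin A. They included feature COL3A1_28516 of the collagen gene COL3A1. Its values were -2.24 in apicidin, -2.43 in mocetinostat, -3.73 in panobinostat, -3.09 in scriptaid, -2.38 in tacedinaline and -2.47 in valproic acid. ACTA2 was called lower in the same inhibitors, at -1.04, -1.77, -1.27, -2.79, -1.93 and -0.82 in that order. Values of both in vorinostat are not given here. The lower call in trichostatin A was feature DCN_27098 of DCN (-1.65). Of the 8 higher calls 6 were feature COL1A1_1466 of COL1A1, a collagen chain of fibroblasts, with log2 changes from 1.01 in apicidin to 3.04 in scriptaid and 1.62 in valproic acid, and the others were LUM in valproic acid (0.62) and PDGFRB in vorinostat (0.75). In lysates of a whole culture, fewer cells of a type and less RNA per cell cannot be told apart, and the part of the culture's makeup in the member changes was not tested.

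NAGS and CPS1 stand at the entry of the cycle. NAGS was at 0 counts in 94 of 118 libraries and reached 9 counts at most, in mocetinostat C4 with 9, 0 and 7 counts in batches 1 to 3. It passed the count filter in no inhibitor, so its direction was not measurable at this depth. CPS1, the enzyme that fixes ammonia, was measured in all 118 libraries and its C1 groups had means between 52.4 CPM in tacedinaline and 109.8 CPM in apicidin.

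The CPS1 libraries of apicidin read 122, 107 and 100.4 CPM at C1 and 20.9, 21.7 and 18.4 CPM at C5. In mocetinostat they read 86.4, 66.8 and 56.8 CPM at C1 and 4.89, 12.8 and 6.66 CPM at C5. All 3 libraries at C5 lay far below C1 in both. The CPS1 level left at C5 was 18.5% of C1 in apicidin (log2 change -2.42, SE 0.239, adjusted p = 2.01e-07) and 11.6% in mocetinostat (log2 change -3.01, SE 0.401, adjusted p = 3.17e-05). For scriptaid the libraries held 119.8, 69.4 and 54.4 CPM at C1 and 10.9, 12.2 and 2.38 CPM at C5. Tacedinaline had 74.9, 35.5 and 46.8 CPM at C1 and 8.9, 2.05 and 7.73 CPM at C5. The remaining level was 10.5% in scriptaid and 11.9% in tacedinaline, with log2 changes of -3.15 (SE 0.557) and -3.01 (SE 0.389). Panobinostat libraries gave 117, 95.3 and 59.4 CPM at C1 and 27.2, 35.6 and 27.1 CPM at C5, a smaller change of -1.61 (SE 0.273, adjusted p = 0.000225). Vorinostat libraries gave 84.3, 56.1 and 52.5 CPM at C1 and 29.4, 18.4 and 5.89 CPM at C5, a change of -1.77 (SE 0.365). In none of these 6 inhibitors did a C5 library reach the lowest C1 library. In trichostatin A the log2 change of CPS1 was -0.70 (SE 0.452, adjusted p = 0.658) and the groups overlapped. Without batch 3 the trichostatin A value was -1.81 with an adjusted p of 0.000373, which passes the threshold, and without the C1 library of batch 3 alone it was -1.13 (adjusted p = 0.113).

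OTC, which makes citrulline from ornithine, was a low feature with up to 57 counts in a library and 0 in 28 libraries. Scriptaid libraries held 22, 54 and 30 counts at C1 and 0, 0 and 0 at C5. Vorinostat libraries held 8, 21 and 43 counts at C1 and 0, 0 and 0 at C5. Where every library of a group had at most 3 counts, the size is a lower bound against 3 counts per library. OTC was at least 8.05-fold lower in scriptaid, 5.38-fold in apicidin, 5.03-fold in tacedinaline and 4.11-fold in vorinostat, all 4 called (adjusted p = 0.000547, 0.00782, 0.00125 and 0.000138). Mocetinostat, in which OTC was not tested, had 6, 21 and 6 counts at C1 and 0, 0 and 1 at C5, at least 3.25-fold lower. In panobinostat the libraries read 9.54, 7.69 and 6.61 CPM at C1 and 1.68, 0.242 and 0.274 CPM at C5, a log2 change of -3.43 (SE 0.823, adjusted p = 0.00531). Trichostatin A had 6.45, 5.54 and 0.298 CPM at C1 and 1.6, 3.68 and 5.66 CPM at C5, overlapping groups with a change of -0.19 (95% interval -1.71 to 1.33), and -0.73 without the C1 library that stood apart. The counts of OTC are near the floor in most C5 libraries, which leaves its sizes imprecise. The call was lost without batch 3 in apicidin (adjusted p = 0.0833) and panobinostat (0.0517) and without batch 2 in tacedinaline (0.0778).

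The carriers lie in the inner mitochondrial membrane. SLC25A15, the ornithine carrier, had C1 libraries between 14.0 and 43.0 CPM. It was called lower in 6 inhibitors, from -1.84 (SE 0.451) in mocetinostat to -0.92 (SE 0.274) in panobinostat on the log2 scale, with 26.1% and 53.3% of the C1 level left. The mocetinostat libraries read 32.4, 32.8 and 31.8 CPM at C1 and 5.92, 15.1 and 4.24 CPM at C5, without overlap. The call of SLC25A15 was lost in mocetinostat without batch 3 (adjusted p = 0.0515), in scriptaid without batch 2 (0.178) and in panobinostat without batch 1 (0.123) or 3 (0.172). In valproic acid the change was -0.53 (adjusted p = 0.238), and in trichostatin A 0.01. SLC25A13, the aspartate and glutamate carrier whose loss causes citrullinaemia in people, was called lower in 4 inhibitors. Vorinostat had the largest fitted change of these, from 79.9, 67.7 and 68.0 CPM at C1 to 22.9, 24.5 and 19.5 CPM at C5, a log2 change of -1.57 (SE 0.242, adjusted p = 1.74e-06). The calls in scriptaid, tacedinaline and apicidin were -1.21, -0.89 and -0.82. Mocetinostat at -0.57 (adjusted p = 0.0894) and panobinostat at -0.28 (adjusted p = 0.391) missed the threshold. The call of SLC25A13 was lost in apicidin without batch 3 (adjusted p = 0.0551) and in scriptaid without batch 1 (0.079) or 2 (0.0777).

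ASS1 and ASL, the cytosolic enzymes that build argininosuccinate and split it into arginine and fumarate, moved unequally. ASS1 was called lower in vorinostat, mocetinostat, apicidin and panobinostat. Its vorinostat libraries held 20.1, 22.9 and 24.2 CPM at C1 and 8.16, 0 and 5.31 CPM at C5, the lowest remaining level at 20.03% of C1 (log2 change -2.36, SE 0.55). Mocetinostat kept 22.9% of the C1 level, apicidin 34.0% and panobinostat 50.6%. The panobinostat call was lost without batch 1 (adjusted p = 0.069), 2 (0.0603) or 3 (0.113). In tacedinaline the change of -1.05 had an adjusted p of 0.0552, and with the culture batch as a block it was -1.10 with an adjusted p of 0.0421, which is past the threshold. Scriptaid gave -0.91 (adjusted p = 0.102), valproic acid -0.30 (adjusted p = 0.555) and trichostatin A 0.01 (adjusted p = 0.997).

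ASL cleaves argininosuccinate. Its C1 libraries lay between 75.8 CPM, in the trichostatin A library that stood apart, and 197 CPM. At C5 the mean level was 68.2% of C1 in mocetinostat, 67.2% in apicidin, 75.7% in scriptaid, 81.8% in panobinostat, 85.0% in vorinostat and 88.9% in tacedinaline. None of these 6 was called. The apicidin change of -0.56 passed on adjusted p (0.0328) but was under 1.5-fold. In tacedinaline and vorinostat ASL was called lower at C4 (-0.64 and -0.68 on the log2 scale) but not at C5 (-0.09 and -0.12). Its tacedinaline libraries read 153, 146 and 136 CPM at C1, 77.3, 94.4 and 96.5 CPM at C4 and 111, 120.5 and 155 CPM at C5, so all 3 C5 libraries lay above all 3 C4 libraries. The difference between C4 and C5 was not tested.

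ARG1, the liver arginase that releases urea, fell further than CPS1 in each of the 7 inhibitors by its fitted change. Apicidin libraries held 124, 129.6 and 75.4 CPM at C1 and 1.83, 4.89 and 7.96 CPM at C5. Mocetinostat libraries held 69.0, 57.8 and 51.1 CPM at C1 and 3.35, 2.05 and 0.606 CPM at C5. In both, the highest C5 library was far below the lowest C1 library, and the means were 4.47% and 3.37% of C1 (log2 change -4.46, SE 0.363, and -4.75, SE 0.529). Tacedinaline went from 94.3, 47.7 and 51.5 CPM at C1 to 0.495, 1.37 and 0.407 CPM at C5, a change of -6.15 (SE 0.479, adjusted p = 3.54e-14). Vorinostat went from 79.3, 116 and 69.3 CPM at C1 to 0, 0.471 and 2.95 CPM at C5, a change of -6.05 (SE 0.549, adjusted p = 4.64e-11). The 3 C5 libraries held 6 counts in all in tacedinaline and 6 in vorinostat. Scriptaid had 113, 88.1 and 103 CPM at C1 and 3, 2 and 1 counts at C5, so ARG1 was at least 85.8-fold lower (adjusted p = 4.47e-06). Panobinostat kept more, with 94.3, 87.2 and 54.1 CPM at C1 and 17.4, 12.6 and 12.6 CPM at C5, or 18.1% of the mean (log2 change -2.49, SE 0.29). Trichostatin A libraries at C5 read 88.9, 68.9 and 83.7 CPM and overlapped with C1, at a change of -0.04 (95% interval -0.83 to 0.75). Without the C1 library of batch 3 that change was -0.49 (adjusted p = 0.34).

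ARG2, the mitochondrial arginase, rose in the same 7 inhibitors. Scriptaid had the largest rise, from 4.95, 5.04 and 3.78 CPM at C1 to 80.2, 119 and 153 CPM at C5, 25.5 times the C1 mean (log2 change 4.73, SE 0.401, adjusted p = 3.37e-07). Vorinostat rose from 10.1, 3.52 and 6.83 CPM to 125, 98.4 and 119 CPM, 16.8 times. The lowest C5 library of either inhibitor was above every C1 library. Mocetinostat went from 9.22, 5.21 and 10.8 CPM to 118, 131 and 95.4 CPM and tacedinaline from 10.1, 3.55 and 8.78 CPM to 99.9, 88.3 and 107 CPM, 13.7 and 13.2 times the C1 mean. Apicidin libraries read 7.96, 10.9 and 8.98 CPM at C1 and 58.8, 37.9 and 69.1 CPM at C5, a log2 change of 2.58 (SE 0.283). Panobinostat libraries read 3.25, 7.69 and 5.35 CPM at C1 and 27.7, 26.7 and 33.4 CPM at C5, a log2 change of 2.41 (SE 0.365). No C5 library of these 6 inhibitors overlapped with C1. In trichostatin A, ARG2 read 7.21, 17.1 and 5.35 CPM at C5, with a log2 change of -0.33 (adjusted p = 0.908), and of 0.68 without the C1 library of batch 3 (adjusted p = 0.653), so that its direction there depended on 1 library.

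**Figure D2:**
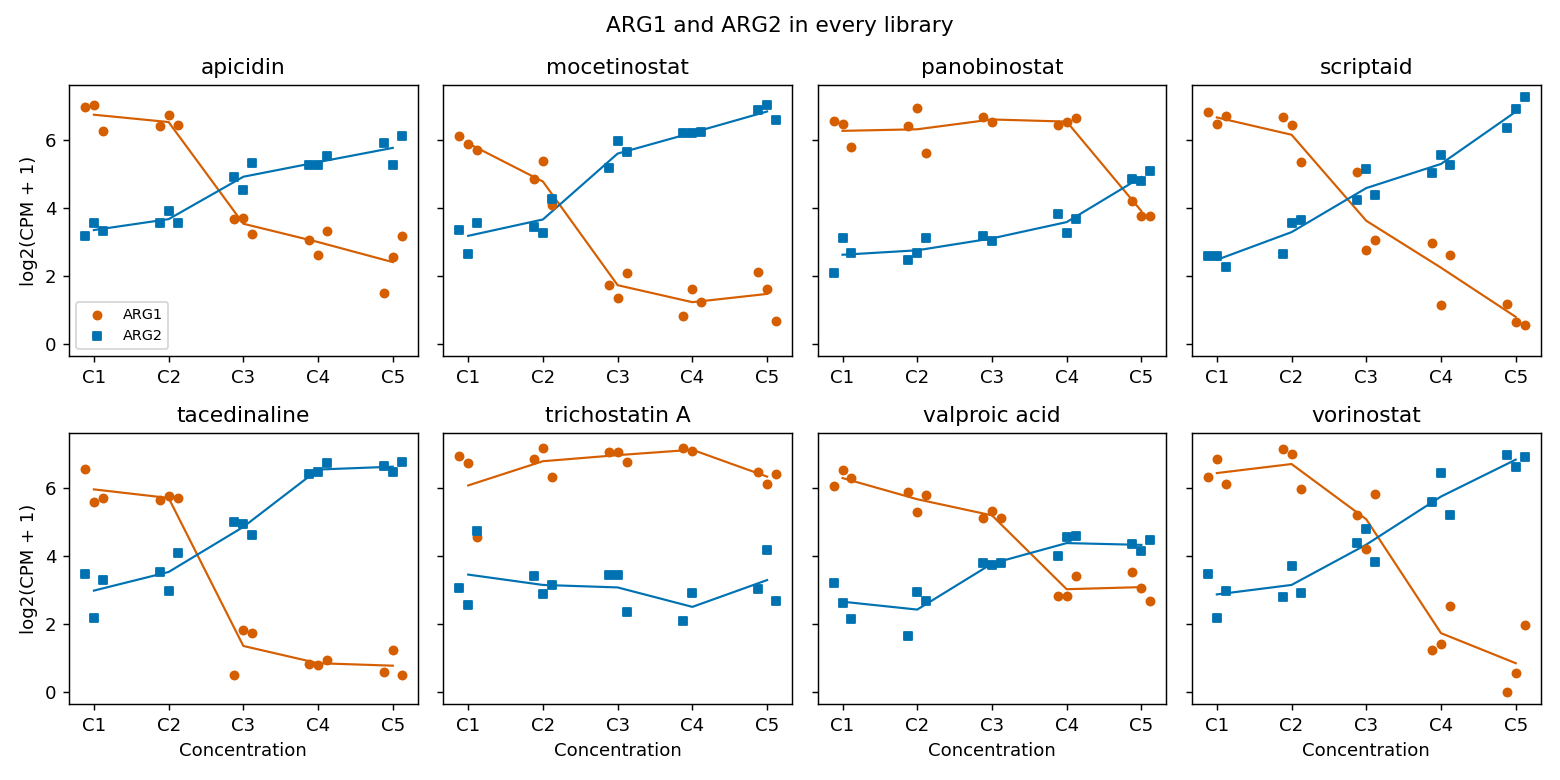
ARG1 (orange circles) and ARG2 (blue squares) as log2(CPM + 1) in every library of each inhibitor along C1 to C5, with lines through the group means and batches 1 to 3 side by side. ARG1 is lower and ARG2 higher at C5 than at C1 in 7 panels, and in the trichostatin A panel the ARG1 and ARG2 points of the batch 3 library at C1 lie side by side. Levels of the 2 probes are not comparable with each other.

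GLUL was measured through feature GLUL_19900, with C1 libraries between 163 and 320.2 CPM. Its second feature, GLUL_2679, was at 0 counts in 93 of 118 libraries with a highest count of 8, and was tested in no inhibitor, so GLUL rests on 1 probe. GLUL_19900 was called lower in 6 inhibitors. Mocetinostat had 232, 235 and 290.2 CPM at C1 and 72.6, 97.5 and 83.3 CPM at C5, a log2 change of -1.49 (SE 0.204, adjusted p = 4.20e-05). The other calls ran from -1.16 in scriptaid to -0.86 in panobinostat. The call was lost without batch 2 in scriptaid (adjusted p = 0.107) and without batch 3 in panobinostat (0.0586). In apicidin GLUL stayed near its C1 level, with 224, 191 and 233 CPM at C1 and 196, 225 and 182 CPM at C5, a change of -0.09 (95% interval -0.43 to 0.24), while 6 other members fell in the same libraries. In trichostatin A every C5 library was below every C1 library, 159, 215 and 242 CPM against 302.8, 268 and 320.2 CPM, at a change of -0.52 that did not pass (adjusted p = 0.39).

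Along the concentrations the members were called from C3 on. At C2 no member was called in 71 tests, with 8 at an unadjusted p under 0.05 in edgeR and 1 called by DESeq2. Of all features 0.102% were called at C2 in apicidin, 0.191% in mocetinostat, 0% in panobinostat, 0% in scriptaid, 0.385% in tacedinaline, 0% in trichostatin A, 0% in valproic acid and 0.0172% in vorinostat. At C3 there were 18 calls among the members, 13 lower and 5 higher, and 10 calls without batch 2. Apicidin had 4 of 9 members called at C3 (15.3% of all features), tacedinaline 4 of 9 (11.9%), mocetinostat 3 of 8 (11.6%), scriptaid 3 of 9 (1.34%), valproic acid 2 of 9 (1.13%) and vorinostat 2 of 9 (7.06%). Panobinostat, with 2 libraries at C3, and trichostatin A had none (0.00763% and 0%), with 1 and 0 members at an unadjusted p under 0.05. ARG1 was called in each of the 6 inhibitors with a call at C3, CPS1 in 5 and ARG2 in 5.

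At C4 the calls among the members numbered 35, with 29 lower and 6 higher. Tacedinaline had 7 of 9 (32.8% of all features), vorinostat 7 of 9 (32.3%), mocetinostat 6 of 8 (23.7%), apicidin 5 of 9 (22.3%), valproic acid 5 of 9 (11.9%) and scriptaid 4 of 9 (4.87%). Panobinostat had 1, GLUL (2.56%), and trichostatin A none (0%), also at an unadjusted p under 0.05. In panobinostat ARG1 went from 86.0, 91.4 and 100.5 CPM at C4, level with C1, to 17.4, 12.6 and 12.6 CPM at C5, so that its call came at C5 alone. Scriptaid C4 and mocetinostat C2 were the groups whose libraries correlated least with each other. The batch 3 library of scriptaid C4 had the lowest mean r with its group, 0.8601. It held 10223 features with at least 5 counts, against 12367 and 12873 in batches 1 and 2. It read 5.83 CPM of SLC25A15, against 33.3 and 26.4 CPM, so the scriptaid calls at C4 rest partly on a deviating library. The 4 contrasts of an inhibitor share its C1 libraries and are not independent of each other.

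In valproic acid 5 members were called at C5, against 6 to 8 in the other 6 inhibitors with calls. CPS1 fell from C1 to C5 through 90.1, 101 and 82.8 CPM at C1, 60.1, 51.4 and 55.5 CPM at C2, 38.1, 24.1 and 32.6 CPM at C3, 20.4, 10.9 and 22.7 CPM at C4 and 13.1, 28.7 and 9.31 CPM at C5. No library from C2 on reached the lowest C1 library, and the change was called at C3 (-1.53), C4 (-2.33) and C5 (-2.41, SE 0.324, adjusted p = 2.09e-05). The ARG1 libraries held 66.5, 91.6 and 77.0 CPM at C1, 33.9, 39.5 and 34.1 CPM at C3, 6.15, 6.08 and 9.64 CPM at C4 and 10.5, 7.35 and 5.36 CPM at C5, where 9.89% of the C1 mean was left (log2 change -3.30, SE 0.277, adjusted p = 2.63e-08). ARG2 went from 8.21, 5.19 and 3.4 CPM at C1 through 12.8, 12.4 and 12.9 CPM at C3 to 19.6, 16.6 and 21.4 CPM at C5, 3.43 times the C1 mean (log2 change 1.76, adjusted p = 0.00322, or 0.0566 without batch 3). All 3 genes thus had C5 libraries that did not overlap with C1.

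ASL was called in valproic acid at C5 and in no other inhibitor at C5. Its libraries read 140.1, 147 and 157 CPM at C1 and 93.4, 84.4 and 90.6 CPM at C5, a log2 change of -0.72 (SE 0.187, adjusted p = 0.0137). The call was lost without batch 1 (adjusted p = 0.168) or 2 (0.0756). GLUL fell from 213, 209 and 229.7 CPM to 102, 137 and 109 CPM, a change of -0.90 (SE 0.192, adjusted p = 0.00315, or 0.154 without batch 1). OTC had 7.21, 9.77 and 3.4 CPM at C1, 0.637, 1.27 and 0 CPM at C4 and 3.58, 0.474 and 0.282 CPM at C5. It was called lower at C4 (adjusted p = 0.0175) but not at C5, where batch 1 overlapped with C1 and the change was -2.14 (adjusted p = 0.0927). With the culture batch as a block the OTC change at C5 was -2.32 with an adjusted p of 0.0487, which is past the threshold. ASS1 read 21.9, 22.3 and 18.1 CPM at C5 against 36.4, 20.5 and 20.2 CPM at C1, and SLC25A15 20.2, 20.4 and 11.0 CPM against 22.4, 27.2 and 26.2 CPM. Neither was called, and the ASS1 groups overlapped.

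**Figure D3:**
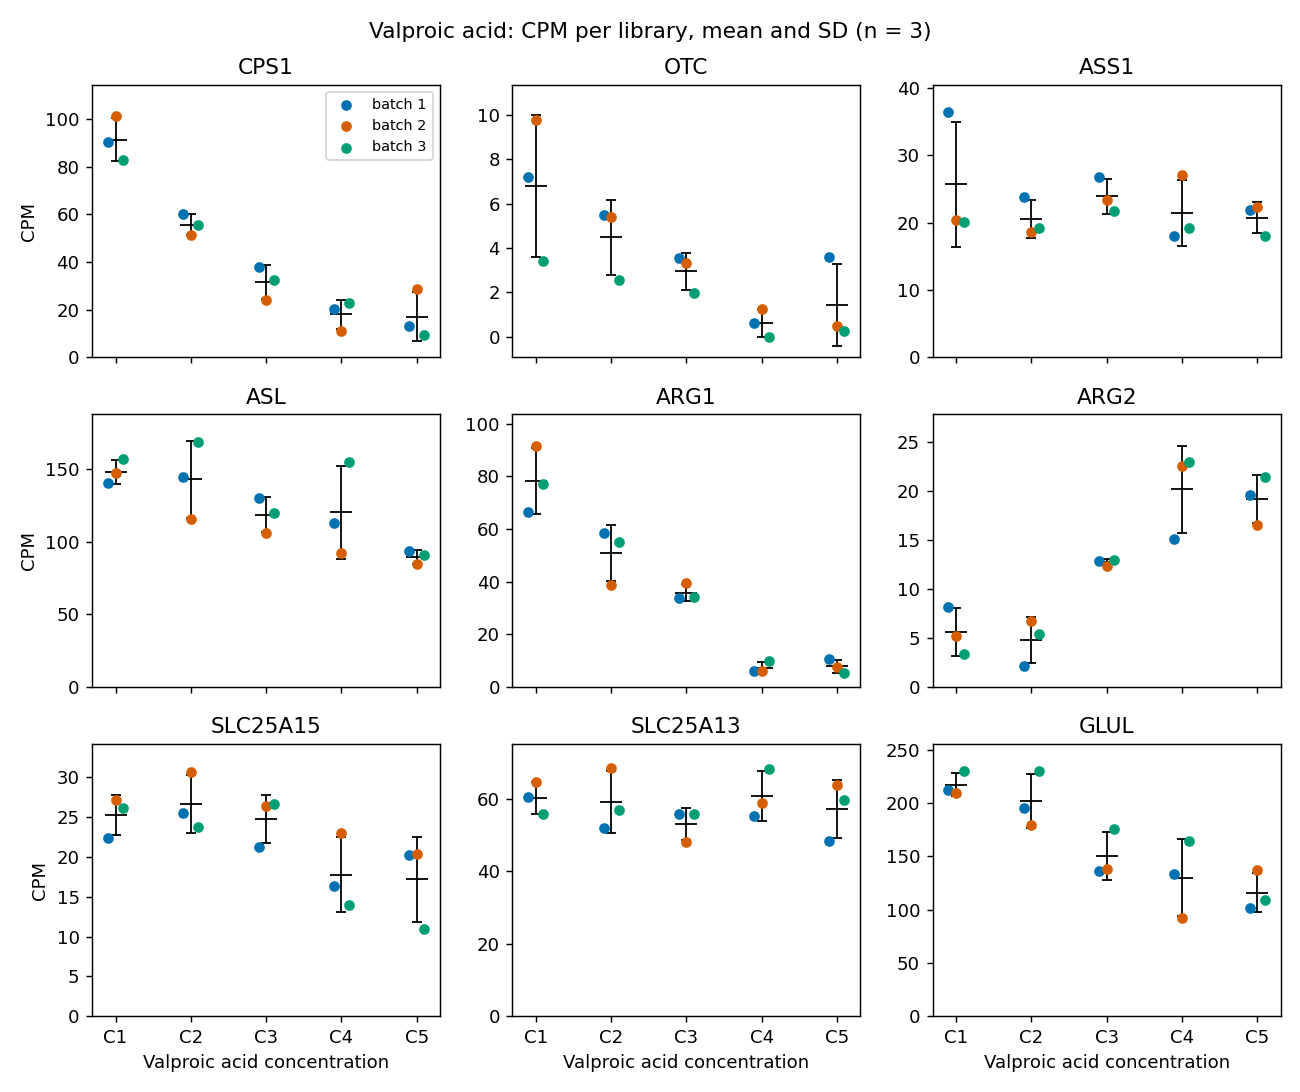
CPM of 9 tested genes in the 15 valproic acid libraries along C1 to C5, coloured by culture batch, with the mean and SD of 3 libraries in black and axes that start at 0, or just below it for OTC. CPS1 and ARG1 lie below C1 from C2 on, ARG2 lies above C1 from C3 on, and the SLC25A13 points at C1 and C5 overlap.

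Whether the change from C1 to C5 in valproic acid differed from the mean change of the other 7 inhibitors was tested gene by gene in a fit of all 118 libraries, in which 5.79% of 15632 features differed. SLC25A13 was the member that passed. Its valproic acid libraries held 60.5, 64.7 and 55.8 CPM at C1 and 48.3, 63.8 and 59.8 CPM at C5, a change of -0.08, while the mean change of the others was -0.85, a difference of 0.77 (SE 0.227, adjusted p = 0.0225). This call was lost without batch 1 (adjusted p = 0.206), 2 (0.28) or 3 (0.154). ARG2 had a difference of -1.25 (adjusted p = 0.0671), OTC 2.72 (0.0808), ARG1 1.15 (0.167), ASS1 1.01 (0.149) and SLC25A15 0.84 (0.198), with the adjusted p in parentheses, and none of these passed. The values of OTC and ARG1 include groups at the count floor and are not sizes. For ASL, called at C5 in valproic acid alone, the difference was -0.42 (95% interval -0.85 to 0.01, adjusted p = 0.308), which does not show that valproic acid acted on ASL differently from the others. CPS1 differed by -0.13 (95% interval -1.02 to 0.76) and GLUL by 0.03 (-0.37 to 0.44). Against the 6 inhibitors other than trichostatin A, 5 members differed, namely SLC25A13, OTC, ASS1, ARG1 and ARG2. By the labels, valproic acid was on 1 plate with apicidin, mocetinostat, panobinostat and trichostatin A, and the other 3 inhibitors were on another. Against the 4 others on its own plate no member differed, and the difference of SLC25A13 was 0.42 (adjusted p = 0.638). The share of all features that differed is not given here for the contrasts with 6 and with 4 inhibitors. Their counts of members thus stand without a background. Since the doses were not matched, these differences hold for the concentrations used.

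Other genes of ammonia and glutamine handling were measured beside the members. Of 134 tests at C5 over 8 inhibitors, in 25 features of 23 genes, 29 were called lower and 7 higher. Vorinostat had 4 of 14 lower and 1 higher, beside 24.9% and 22.7% of all features, so the lower calls there were near the share of all features. Tacedinaline had 4 of 17 lower beside 20.1%, which was also near that share, and valproic acid had 3 of 18 beside 6.22%. The shares of all features given above apply to the counts of each list below. AQP9, a liver channel for glycerol and urea, SLC38A3, a glutamine transporter, and GPT, alanine aminotransferase, were called lower in the same 7 inhibitors as CPS1 and ARG1. AQP9 changed by -2.44 in valproic acid and -6.94 in mocetinostat, SLC38A3 by -2.62 and -2.52, and GPT by -1.88 and -4.18. SLC14A1, a urea transporter, was called lower in 5 inhibitors and higher in valproic acid, from a mean of 7.13 CPM at C1 to 15.8 CPM at C5 (log2 change 1.14, SE 0.359, adjusted p = 0.0419). That was feature SLC14A1_27862, and the second one, SLC14A1_21920, gave -0.39 in valproic acid (adjusted p = 0.78), so the probes disagreed there. In tacedinaline the mean of the first feature went from 7.74 to 0.543 CPM. The list median ran from -0.50 in scriptaid to 0.24 in valproic acid, beside an all-feature median of 0.01 and 0.01.

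Genes of arginine, ornithine and proline beside the cycle gave 45 lower and 13 higher calls in 130 tests of 24 features. Vorinostat had 7 of 15 lower beside 24.9% of all features, and valproic acid 3 of 17 beside 6.22%. PRODH2 (hydroxyproline breakdown, feature PRODH2_90182), AGMAT, an agmatinase-type enzyme, and GATM, the arginine-using first enzyme of creatine synthesis, were called lower in 7 inhibitors. The second PRODH2 feature, PRODH2_89665, was called lower in 3 of the 6 inhibitors in which it was tested and not in valproic acid (-0.68, adjusted p = 0.621). GATM changed by -5.06 in tacedinaline and -1.61 in valproic acid, and AGMAT by -4.64 and -2.50. ODC1, which turns ornithine, the product of the arginases, into putrescine, was called higher in 5 inhibitors by each of its 2 features. The mean of feature ODC1_4799 rose from 30.3 to 473 CPM in mocetinostat and from 29.3 to 334 CPM in vorinostat, and was 27.6 and 35.4 CPM in valproic acid, where it was not called (adjusted p = 0.597). With features at the floor put at their bound, the list median ran from -1.06 in mocetinostat to -0.09 in trichostatin A.

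Regulators known to act on urea cycle genes were called lower 39 times and higher 3 times in 100 tests of 14 features. Vorinostat had 5 of 11 lower beside 24.9% of all features, and valproic acid 0 of 13 beside 6.22%. HNF4A, a nuclear receptor of hepatocytes, and FOXA1, a forkhead factor of liver, were called lower in 6 inhibitors, all those with member calls except valproic acid. HNF4A had a log2 change of -4.52 in tacedinaline (adjusted p = 3.22e-07) and of -1.19 in valproic acid (adjusted p = 0.0738), where its mean went from 15.5 to 6.71 CPM. FOXA1 had -2.02 and -0.69 in the same inhibitors, the second with an adjusted p of 0.242. CREB3L3, a factor of the fasting response in liver, was called lower in 5 inhibitors and higher in scriptaid (1.03), and PPARA, the fatty acid sensing receptor, lower in 5 by one feature and in 3 by the other. Without batch 2 the calls of this list numbered 25 in all. In valproic acid the list median was -0.24, against -1.71 in mocetinostat.

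Genes of the zones of the liver lobule were compared because GLUL and the cycle enzymes lie in different zones. Of periportal genes, 25 of 58 tests were called lower and none higher. Apicidin had 4 of 8 lower beside 15% of all features, and mocetinostat 4 of 8 beside 15.7%. G6PC, the last step of glucose release, was called lower in 7 inhibitors and changed by -3.18 in valproic acid. CDH1, the cadherin of epithelia, was called in 5 and HSD17B13, a lipid droplet enzyme, in 3. Of perivenous genes, 15 of 60 tests were lower and 1 higher. Apicidin had 2 of 7 lower beside 15% of all features, and mocetinostat 2 of 8 beside 15.7%. CYP7A1, the first enzyme of bile acid synthesis, and CYP2E1, which oxidises ethanol, were called lower in 7 inhibitors and made 14 of the 15 lower calls, the other being RNF43 in vorinostat (-2.14). The single higher call was LGR5 in tacedinaline, at means of 0.592 and 7.42 CPM. CYP2E1 changed by -2.49 in valproic acid. CYP7A1 was at least 99.9-fold lower in that inhibitor. The list medians in valproic acid were -1.96 over 7 tested periportal features and -0.18 over 8 tested perivenous features. Of the perivenous features 2 had a group at the count floor. A difference between the zones was not tested.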

How the data were processed

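The authors deposited 1 table of raw counts per detector probe for 118 libraries of HepaRG cells, made from TempO-Seq reads. Per the submitters' processing notes, bcl2fastq 2.20.422, fastp 0.23.2, STAR 2.7.10b and DESeq2 1.38.0 were used, and the genome build is not given in the sources used here. Of 22069 rows, 1 lacked values in 88 libraries and was left out. The members and lists were chosen with earlier results of these data known.

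From the counts, each inhibitor's C2 to C5 groups were compared with its C1 group in edgeR 4.0.16 (R 4.3.3), with filterByExpr, TMM scaling and a quasi-likelihood test (glmQLFit, glmQLFTest), and p-values were adjusted by Benjamini-Hochberg over all features tested. A change was called at an adjusted p under 0.05 and at least 1.5-fold. The fits held the 5 groups of 1 inhibitor, without a batch term. The difference of valproic acid from the others came from 1 fit of all libraries. Log2 changes are fitted values, with 95% intervals from the t distribution, and CPM are counts over the scaled library size. A group with at most 3 counts in every library is at the floor, and a size against it is a lower bound, which covers counting error only. Replicates are culture batches, so p-values measure the spread between batches of 1 line. No 2 libraries held identical values.

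Same-numbered libraries share a culture batch by the labels. Their deviations from the group means correlated with a median r of 0.027 over 232 pairs, against -0.012 over 464 pairs of other numbers. The text names all members, up to 4 features of each list called in the most inhibitors in 1 direction, and features called in valproic acid against the direction of most other calls. Features SLC14A1_21920 and PRODH2_89665, LUM and PDGFRB were added after their values were seen, and 1 periportal gene that the rule names is not reported here. Alternatives were DESeq2 1.42.0, its size factors, no filter, the batch as a block, leaving out each batch, 1 fit of all libraries and a trend on dose. The scripts were tested on simulated data. Promoter windows are from RefSeq, build GRCh38.p14.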

Additional observations from a re-analysis of the deposited data

Results flagged for a closer look

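The difference between the change of SLC25A13, the mitochondrial aspartate and glutamate carrier, in valproic acid and its mean change in the other 7 inhibitors passed the test across all features. It was 0.771 on the log2 scale (SE 0.227, edgeR quasi-likelihood adjusted p = 0.0225), from -0.08 in valproic acid and -0.85 in the others. Against the 4 inhibitors on its own plate alone the difference was 0.42 (adjusted p = 0.638), and it did not pass when any 1 batch was left out. The concentrations were not matched between the inhibitors.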

How the results depend on the processing

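Leaving out 1 batch or library at a time gave 3 to 6 members called at C5 in panobinostat, 4 to 8 in scriptaid, 3 to 4 in valproic acid and 0 to 1 in trichostatin A. Summed over the inhibitors, it gave 0 to 2 calls at C2 and 10 to 17 at C3, and 25 to 34 calls of urea cycle regulators at C5. At C2, DESeq2 and 1 fit of all libraries each called 1 member. For the difference of valproic acid from the other 7, DESeq2 called 2 members, the fit without a filter 0, leaving out a batch 0 to 3, and the mean of the other 6 without trichostatin A 5 and that of the other 4 on the same plate 0, both alternatives chosen after seeing the data. The cause was not tested, and the share of all features that differed is not given here for these alternatives.

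With the culture batch as a block, ASS1 in tacedinaline (-1.10) and OTC in valproic acid (-2.32) passed the threshold at C5, and the block changed no other call of a member there. Without the filter on low counts the difference of SLC25A13 had an adjusted p of 0.0858.

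Log2 changes at C5 that were not called could turn sign. Over the fits that leave out a batch or library, GLUL in apicidin ranged from -0.27 to 0.0171, ASL from -0.31 to 0.0319 in tacedinaline and from -0.30 to 0.00709 in vorinostat, and in valproic acid ASS1 from -0.49 to 0.00247 and SLC25A13 from -0.16 to 0.0468. In trichostatin A the ranges were -1.17 to 0.68 for OTC, -0.50 to 0.61 for ASS1, -0.22 to 0.30 for ASL, -0.52 to 0.27 for ARG1, -1.35 to 0.97 for ARG2 and -0.30 to 0.55 for SLC25A15. With the replicate block OTC was 0.11 and ARG1 0.14 there. The trend on log2 dose was -0.0821 for ASS1, 0.0727 for ARG1 and -0.12 for SLC25A15 in trichostatin A, and 0.11 for GLUL in apicidin. The difference of valproic acid from the others ranged from -0.58 to 0.21 for CPS1, and was 0.13 without trichostatin A. Against the mean of the other 4 on the same plate it was -0.36 for ARG1 and -0.14 for GLUL. For GLUL it ranged from -0.0961 to 0.11, was -0.00050 with the size factors of DESeq2 and -0.00041 by DESeq2. NAGS and the second GLUL feature were too low to test at this depth, and OTC was near the floor at C5.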
